A study of Mus musculus with 7 samples.

Results

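The genes examined were 10 integrin subunits chosen by symbol: the alpha subunits Itga2, Itga5, Itga7, Itga8, Itga9 and Itgav, and the beta subunits Itgb1, Itgb3, Itgb5 and Itgb6. They are 10 of the 56854 gene identifiers listed for all libraries. All 10 passed the filter on low counts and were among the 17791 genes tested. The libraries came from whole shoulder joints of 7 mice, 1 library per mouse. In every mouse, of either genotype, the supraspinatus tendon of the left shoulder had been surgically repaired 2 weeks earlier, so an unoperated joint was not part of the comparison. The groups were wild type (WT, n = 3) and Tnc-/- (n = 4), which lack tenascin-C, an extracellular matrix glycoprotein made in developing and healing connective tissue. The labels give neither age, sex, strain nor the kind of Tnc deletion.

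Integrins are cell surface receptors built from 1 alpha and 1 beta chain, which join the matrix outside the cell to actin inside it through talin, kindlin and other adaptors. Integrins alpha v with beta3 or beta6, and alpha8 with beta1, recognise an arginine-glycine-aspartate (RGD) site in tenascin-C, in fibronectin or in both, and alpha9beta1 binds tenascin-C at another site. Alpha5beta1 is the classical fibronectin receptor, alpha2beta1 is best known as a collagen receptor, and alpha7beta1 is the main laminin receptor of skeletal muscle fibres. A subunit reaches the cell surface only as part of a pair, so transcript levels do not give the level of any receptor.

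Promoter sequence is shown for the pair of alpha subunits that fell between the genotypes (values given further on) and for Itgb5, an abundant subunit that did not pass the test. The table of RefSeq promoters used here (GRCm38.p6) matched 8 of the 10 genes, without Itga7 and Itgb3. The 250 bases before the annotated start are given 5′ to 3′ on the gene's own strand, and GC boxes are in capitals. The windows are chr2:83724147-83724396 (plus strand) for Itgav, chr2:12301945-12302194 (minus strand) for Itga8 and chr16:33829415-33829664 (plus strand) for Itgb5.
Itgav: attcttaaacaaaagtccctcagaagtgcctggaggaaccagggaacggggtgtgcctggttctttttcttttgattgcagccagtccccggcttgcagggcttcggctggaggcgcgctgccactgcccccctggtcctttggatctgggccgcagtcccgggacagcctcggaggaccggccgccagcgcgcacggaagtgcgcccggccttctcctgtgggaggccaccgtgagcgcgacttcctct
Itga8: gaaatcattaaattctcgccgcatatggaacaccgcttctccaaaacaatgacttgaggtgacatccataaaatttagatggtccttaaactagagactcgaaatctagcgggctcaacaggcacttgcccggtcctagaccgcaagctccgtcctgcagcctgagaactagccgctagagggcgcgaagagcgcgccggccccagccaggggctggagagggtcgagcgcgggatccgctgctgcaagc
Itgb5: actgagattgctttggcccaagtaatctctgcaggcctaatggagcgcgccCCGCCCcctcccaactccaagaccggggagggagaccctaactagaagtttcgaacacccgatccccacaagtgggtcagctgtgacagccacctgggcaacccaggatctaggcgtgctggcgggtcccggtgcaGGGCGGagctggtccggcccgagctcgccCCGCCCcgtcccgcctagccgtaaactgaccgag
The motifs searched, on both strands, were the GC box (GGGCGG), the TATA box (TATAAA) and the AP-1 site (TGANTCA). No match overlapped another in the windows searched for these genes. The GC box was found in 32.7% of 32851 promoters of the same length, the TATA box in 12.4% and the AP-1 site in 6.75%. Itgb5 held 3 GC boxes, Itga5 held 2 and Itgb1 held 1, and no GC box was found in the windows of Itga2, Itga8, Itga9, Itgav or Itgb6. Neither the TATA box nor the AP-1 letters occurred in any of the 8 genes' windows. The GC content was 64.4% for Itgav, 56.4% for Itga8 and 65.2% for Itgb5, against a median of 52.4% over all promoters.

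Libraries held 13464057 to 18503833 gene counts in wild type and 19250322 to 28191101 in Tnc-/-. Tnc itself was at 437, 292 and 327 CPM (counts scaled to a common library size) in WT 1 to 3 and at 33.4, 38.9, 39.9 and 55.0 CPM in Tnc-/- 1 to 4, a log2 fold change of -3.08 (SE 0.21, adjusted p = 2.8e-04 in edgeR's quasi-likelihood test). The counts of each genotype were listed in a form of its own, and this form cannot be told apart from genotype. WT 2 and 3 stood apart. Their smell and pheromone receptor genes, which a joint is not known to express, summed to 1564 and 1112 CPM, against 89.8 in WT 1 and 33.3 to 41.5 in Tnc-/-. Genes spanning over 100 kb were also high there, with a median log2 ratio to the Tnc-/- mean of 1.4 and 1.11, against 0.168 in WT 1. The difference of each subunit is therefore also given without these libraries, a fit in which WT 1 is alone and is assumed to vary as the Tnc-/- libraries do. Muscle, tendon, cartilage, vascular and marrow cell markers were present throughout, while Scx (tendon), Acp5 (osteoclast) and Chad (cartilage) were listed at 0 counts in all 7 libraries. Whether these zeros come from the counting or from the joints was not tested, and they are not read as absent transcripts.

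Itgb1 was the most abundant of the 10 transcripts and Itga8 the least. Levels were compared between genes as CPM per kb of exon. In wild type, Itgb1, the common beta chain of many integrins, was at 142.3 ± 31.45 CPM per kb (SD, n = 3), followed by Itgb5, an alpha v partner, at 69.59 ± 12.8. Then came Itga5 at 20.3 ± 2.35, Itgb3 at 17.53 ± 5.97, Itga7 at 10.99 ± 2.386 and Itgav at 8.856 ± 1.098, and each of these overlapped the next across its libraries. The lowest were Itgb6 at 3.917 ± 1.096, Itga2 at 3.416 ± 1.191, Itga9 at 3.342 ± 1.569 and Itga8 at 3.016 ± 1.065, again with overlapping neighbours but all below the lowest Itgav library at 7.589.

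In Tnc-/- the order was the same at the top, with Itgb1 at 137.9 ± 11.6 CPM per kb (SD, n = 4) and Itgb5 at 73.51 ± 11.05. Itgb3 at 31.95 ± 5.974 and Itga5 at 26.49 ± 6.684 followed and overlapped. Itga7 at 13.91 ± 2.092 and Itgav at 5.774 ± 0.1874 each stood clear of their neighbours. Itgb6 at 3.24 ± 0.9883, Itga9 at 3.228 ± 0.3734 and Itga2 at 2.643 ± 0.5594 overlapped. Itga8, at 0.9258 ± 0.1272, lay below all of them: its highest library was at 1.049 and the lowest Itga2 library at 2.163.

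**Figure D1:**
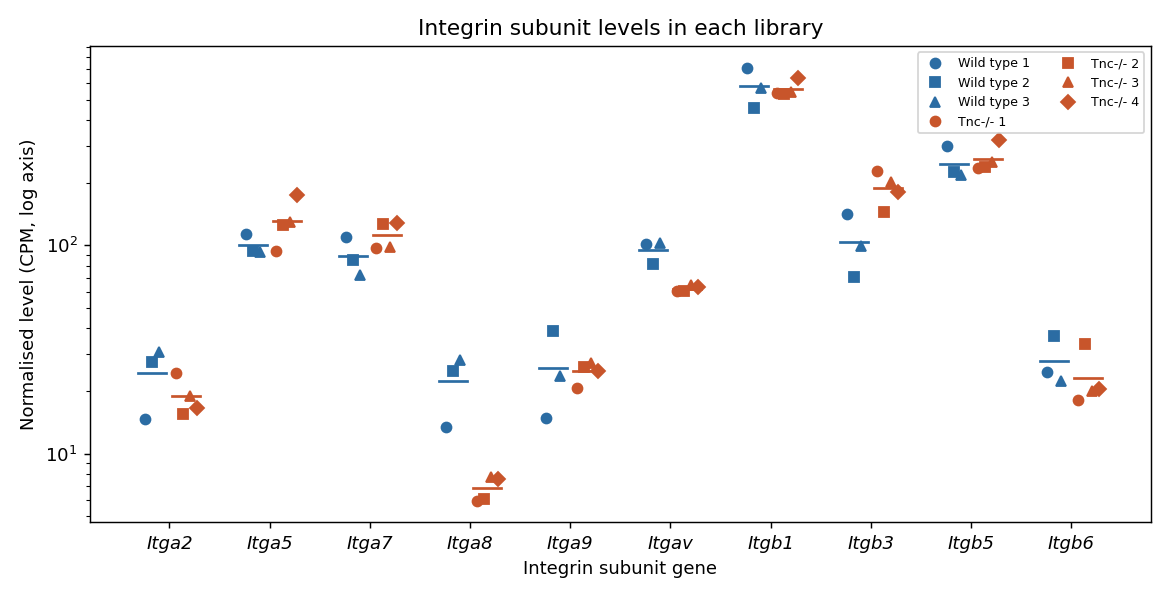
Normalised level (CPM scaled by the trimmed mean of M-values, log axis) of each integrin subunit in each of the 7 libraries, wild type in blue and Tnc-/- in orange. Symbols give the library and lines the mean of a group. The Tnc-/- points of Itga8 and Itgav lie below every wild-type point, those of Itgb3 above, and the other 7 genes overlap.

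The main comparison asked which of the subunits differed by genotype after the repair. Itga8 and Itgav fell, Itgb3 rose and the other 7 did not pass the test. Of 17791 genes, 29.0% had an adjusted p under 0.05 (18.7% lower and 10.3% higher), so 3 of 10 is the share found among all genes. The median log2 fold change was -0.05 over the 10 genes and -9e-04 over all genes, with 4 positive and 6 negative. Groups did not overlap in 3 of the 10, against 35.1% of all genes. Library totals in place of scaling factors left 2 of the 10 called (30.9% of all genes), weighted limma voom called 6 (56.7%), the fit without WT 2 and 3 called 1 (4.45%) and the fit with smell receptor level as a covariate called 0 (2.24%, with 2 of the 10 at an unadjusted p under 0.05). Levels below are normalised CPM, that is, scaled by the trimmed mean of M-values (TMM), which compares 1 gene between libraries. Fold changes set Tnc-/- over WT, and p-values are from edgeR's quasi-likelihood test with Benjamini-Hochberg adjustment over all genes tested. In whole joints, fewer cells of a type and less RNA per cell cannot be told apart.

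**Figure D2:**
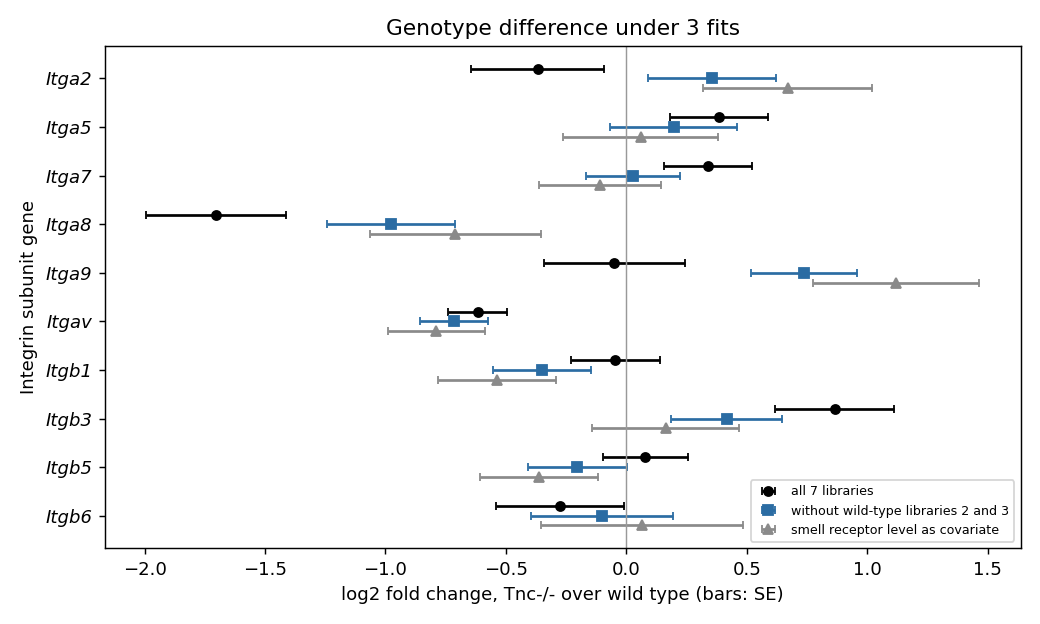
The log2 fold change (Tnc-/- over wild type; bars are the SE) of each subunit in 3 fits: all 7 libraries (black), without WT 2 and 3 (blue) and with the level of smell receptor genes as a covariate (grey). Itgav kept nearly the same value in all 3 fits (-0.79 to -0.62), Itga8 moved from -1.70 to -0.98 and -0.71, while Itga2, Itga9 and Itgb5 changed sign in both other fits, and Itga7 and Itgb6 with the covariate.

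Itgav encodes alpha v, the chain that the beta3, beta5 and beta6 subunits join to form RGD receptors of matrix proteins. It was at 101.5, 81.54 and 102.4 CPM in WT 1 to 3 and at 60.66, 60.11, 64.44 and 62.92 CPM in Tnc-/- 1 to 4. The 4 Tnc-/- values were close to one another and below every WT value. The mean fell from 95.15 ± 11.8 (SD, n = 3) to 62.03 ± 2.014 CPM (SD, n = 4), with a wild-type mean 1.53 times that of Tnc-/-. The log2 fold change was -0.62 (SE 0.12, 95% interval -0.89 to -0.34, adjusted p = 0.00929). Without WT 2 and 3 it was -0.72 (adjusted p = 0.0223), so the difference was as large against WT 1 alone. Itgav kept its sign in all 19 alternative fits and passed the threshold in 18, the exception being the fit with smell receptor level as covariate (-0.79, adjusted p = 0.0645). Itgav spans 82.5 kb on chromosome 2, and 26.2% of tested genes spanning 50 to 100 kb were called lower. Its exons share 634 bases with those of Gm13684 on the opposite strand, which had 0 counts in all 7 libraries.

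Itga8 encodes the alpha8 chain, which pairs with beta1 only and is known from smooth muscle, mesangial and other contractile mesenchymal cells. It was at 13.36, 24.99 and 28.31 CPM in WT 1 to 3 and at 5.955, 6.072, 7.726 and 7.532 CPM in Tnc-/- 1 to 4. The groups did not overlap, and WT 1 was the closest to Tnc-/-. The mean fell from 22.22 ± 7.847 to 6.821 ± 0.9372 CPM, 3.26 times lower (log2 fold change -1.70, SE 0.29, 95% interval -2.36 to -1.04, adjusted p = 0.00732). Without WT 2 and 3, whose Itga8 levels were the highest, the log2 fold change was -0.98 and the call was lost (adjusted p = 0.0564). It was lost too with the smell receptor covariate (-0.71, adjusted p = 0.313), and held in the other 17 of 19 alternatives.

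Itga8 spans 195.3 kb, and 52.4% of the tested genes spanning over 100 kb were called lower, against 10.2% of those spanning up to 50 kb. The part of the unusual wild-type libraries in its value was not tested beyond the fits given. Markers of smooth muscle and pericytes, the cells alpha8 is best known from, summed to 537.2 to 758.6 CPM in wild type. In Tnc-/- they summed to 559.1 to 807.9 CPM, and 0 of 6 were called, where 29.0% of all genes were. The sum was mostly Rgs5 and Acta2. Cnn1 and Tagln were low, at no more than 6.845 and 1.063 CPM in any library. Exons of Itga8 share 372 bases with E030013I19Rik on the opposite strand, which had at most 7 counts in a library.

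Itga5, whose product forms the fibronectin receptor with beta1, was at 113.5, 93.5 and 93.37 CPM in wild type and at 94.5, 124.8, 128.9 and 174.4 CPM in Tnc-/-. The ranges overlapped through Tnc-/- library 1, and Tnc-/- library 4 was the highest. That is a log2 fold change of 0.38 (SE 0.20, 95% interval -0.076 to 0.84, adjusted p = 0.184). Itga7, the muscle laminin receptor chain, was at 110.0, 84.73 and 72.11 CPM in wild type and at 97.6, 126.8, 98.25 and 127.6 CPM in Tnc-/-, where only WT 1 reached the Tnc-/- range. Its log2 fold change was 0.34 (SE 0.18, 95% interval -0.072 to 0.75, adjusted p = 0.188). Over 8 skeletal muscle markers the summed level was 21300 to 28790 CPM in wild type and 29690 to 44100 CPM in Tnc-/-. Each of the 8 had a positive log2 fold change, but only Myh4, a fast myosin, passed the test (1.18, adjusted p = 0.00856), against 10.3% of all genes called higher, and Acta1, Ckm, Ttn, Des and Mb overlapped between genotypes. The part of muscle content in the Itga7 values was not tested. Without WT 2 and 3 the log2 fold changes were 0.20 for Itga5 and 0.03 for Itga7.

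Itga9 encodes the alpha chain of the tenascin-C receptor alpha9beta1. It was at 14.81, 38.68 and 23.63 CPM in wild type and at 20.75, 26.18, 27.32 and 25.05 CPM in Tnc-/-. The wild-type libraries enclosed the Tnc-/- ones, with the lowest and highest values of the 7. The means were 25.71 ± 12.07 and 24.83 ± 2.872 CPM, a log2 fold change of -0.05 (SE 0.29, 95% interval -0.71 to 0.62, adjusted p = 0.915). That interval holds differences of either sign, and the smallest difference that could be detected was not computed. Against WT 1 alone the log2 fold change was 0.74 (adjusted p = 0.074), so the sign turned without WT 2 and 3. Itga9 spans 294.3 kb.

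Itga2 encodes alpha2, the collagen-binding partner of beta1 on platelets, epithelium and fibroblasts. It was at 14.71, 27.71 and 30.68 CPM in wild type and at 24.41, 15.43, 18.98 and 16.58 CPM in Tnc-/-. WT 1 was the lowest of all 7 and the other wild-type libraries the highest. The log2 fold change was -0.37 (SE 0.28, 95% interval -1 to 0.26, adjusted p = 0.347) and turned to 0.36 without WT 2 and 3 (adjusted p = 0.434).

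**Figure D3:**
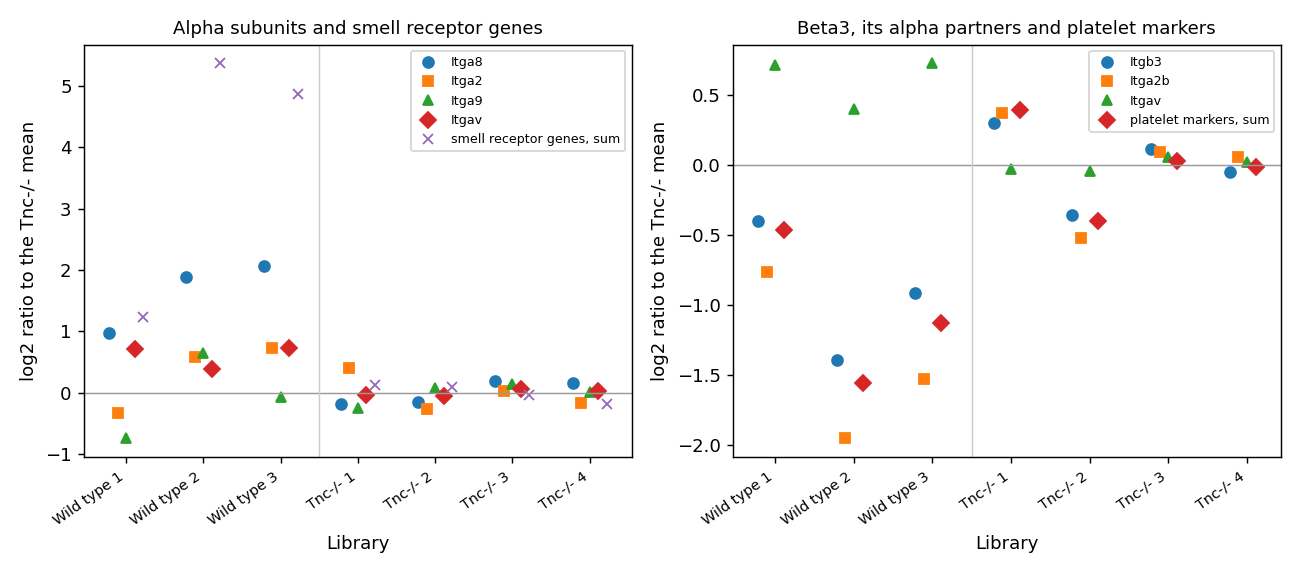
Log2 ratio of each library to the Tnc-/- mean. Left, Itga8, Itga2, Itga9, Itgav and the summed smell receptor genes, which are high in WT 2 and 3. Right, Itgb3, its alpha partners Itga2b and Itgav, and the summed platelet markers. Itgb3, Itga2b and the platelet markers lie below 0 in all 3 WT libraries, Itga2b the lowest of them, and Itgav lies above 0.

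Among the beta subunits, Itgb3 rose and the other 3 did not pass the test. Itgb3 encodes beta3, which pairs with alpha v on osteoclasts, endothelium and fibroblasts and with alpha IIb on platelets and megakaryocytes. It was at 140.8, 70.77 and 98.83 CPM in WT 1 to 3 and at 228.8, 145.2, 200.6 and 179.6 CPM in Tnc-/- 1 to 4. The groups did not overlap, but WT 1 and Tnc-/- library 2 lay close together. The mean was 103.5 ± 35.23 in wild type and 188.6 ± 35.25 CPM in Tnc-/-, 1.82-fold higher in the fit (log2 fold change 0.87, SE 0.25, 95% interval 0.30 to 1.43, adjusted p = 0.0315). Itgb3 spans 62.5 kb, and 7.43% of the tested genes spanning 50 to 100 kb were called higher, against 12.4% of shorter and 3.37% of longer genes. Its call held in 9 of 19 alternatives, and its sign was positive in all 19. Without WT 2 and 3 the log2 fold change was 0.42 (adjusted p = 0.284).

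Single libraries decided the call of Itgb3. Leaving out WT 1 gave a log2 fold change of 1.25 (adjusted p = 0.000141) and leaving out Tnc-/- library 2 gave 0.97 (adjusted p = 0.0408). The call was lost on leaving out WT 2 (0.66, adjusted p = 0.0859), WT 3 (0.84, adjusted p = 0.114) or Tnc-/- library 1 (0.74, adjusted p = 0.0924). It was also lost without Tnc-/- library 3 (0.83, adjusted p = 0.0837) or Tnc-/- library 4 (0.89, adjusted p = 0.068).

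Platelet and megakaryocyte markers moved with Itgb3. Summed over 6 markers, the level was 396.6, 186.7 and 250.6 CPM in WT 1 to 3. In Tnc-/- it was 718.9, 414.9, 558.7 and 543.3 CPM, without overlap. Within each genotype the libraries stood in the same order as for Itgb3. That order was not particular to platelet markers. The neutrophil and macrophage sum had it too, at 5797, 2936 and 3072 CPM in WT 1 to 3. In Tnc-/- that sum was 8006, 5484, 6746 and 6359 CPM, with overlap between genotypes. Of the 5 platelet and megakaryocyte markers tested, 5 were positive and 3 were called higher, against 10.3% of all genes. These were Pf4 (platelet factor 4, 0.83, adjusted p = 0.0137), Gp9 (1.57, adjusted p = 0.0209) and Treml1 (1.31, adjusted p = 0.0193). Osteoclast markers, from another cell type rich in beta3, summed to 1003 to 1378 CPM in wild type and 994.8 to 1262 CPM in Tnc-/-, and the sum was mostly Ctsk and Mmp9. Of the 5 tested, all 5 had a negative log2 fold change, 0 were called higher and 1 was called lower, where 10.3% of all genes were higher and 18.7% lower (Calcr, the calcitonin receptor, -2.0, adjusted p = 0.0309, highest in WT 2 and 3). Ocstamp and Dcstamp, which act in osteoclast fusion, were lower in every Tnc-/- library but did not pass the test (adjusted p = 0.275 and 0.23). The part of platelet, megakaryocyte or leukocyte RNA in the Itgb3 difference was not tested.

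Itgb1, the partner of all the alpha chains here, was at 714.2, 458.1 and 570.0 CPM in wild type and at 538.7, 534.3, 544.6 and 633.5 CPM in Tnc-/-. WT 1 and 2 were the highest and lowest of the 7, so the groups overlapped fully. For Itgb1 the log2 fold change was -0.05 (SE 0.18, 95% interval -0.46 to 0.37, adjusted p = 0.874). Itgb5, the vitronectin receptor chain that pairs with alpha v, was at 299.6, 224.2 and 217.9 CPM in wild type and at 235.6, 238.0, 252.0 and 319.1 CPM in Tnc-/-, again overlapping (0.08, SE 0.18, 95% interval -0.32 to 0.48, adjusted p = 0.765). Scaling by library totals turned the sign of Itgb5 to -0.16. In the fit without WT 2 and 3 the values were -0.35 for Itgb1 (adjusted p = 0.311) and -0.20 for Itgb5 (adjusted p = 0.574).

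Itgb6, whose product pairs with alpha v in epithelium and activates latent TGF-beta, was at 24.58, 36.75 and 22.23 CPM in wild type and at 18.2, 33.48, 20.04 and 20.45 CPM in Tnc-/-. In either genotype library 2 was the highest, and the ranges overlapped. Itgb6 had a log2 fold change of -0.27 (SE 0.27, 95% interval -0.88 to 0.33, adjusted p = 0.468), and of -0.10 without WT 2 and 3 (adjusted p = 0.865). The epidermal markers of the same libraries were low, at 11.65 to 59.81 CPM summed in wild type, with the higher values in WT 2 and 3, and at 7.782 to 13.7 CPM in Tnc-/-. Dsp and Trp63 made up nearly all of the sum in WT 2 and 3 and were called lower (adjusted p = 0.0117 and 0.024). The keratin Krt10 was higher in every Tnc-/- library (0.5316 to 1.519 CPM against 2.33 to 2.841) but did not pass the test (adjusted p = 0.0776), and Krt5, Krt14 and Krt1 were at or near 0.

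The balance of the beta subunits that can join alpha v was compared within each library, as shares of their summed CPM per kb, a measure that library scaling cannot change. Itgb3 made up 8.302, 6.221 and 7.545% in WT 1 to 3 and 16.15, 10.81, 14.08 and 10.92% in Tnc-/- 1 to 4. Every Tnc-/- library lay above every wild-type library. The mean share was 7.356 ± 1.053% (SD, n = 3) in wild type and 12.99 ± 2.596% (SD, n = 4) in Tnc-/-, a difference of 5.63 percentage points (exact two-sided permutation test over 35 splits, p = 0.0571, the smallest this design can give). The difference was 4.69 points without WT 2 and 3. Its size depended on the subunits summed: with Itgb1, which pairs with many other alpha chains, left out of the sum, the Itgb3 share was 18.8% in WT and 29.4% in Tnc-/-, a difference of 10.5 points.

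Itgb5 held 29.9 ± 2.597% in wild type and 29.66 ± 1.908% in Tnc-/-, with overlapping libraries (difference -0.241 points, exact two-sided permutation test, p = 0.914). With Itgb1 left out of the sum the groups no longer overlapped: Itgb5 held 76.0% in WT and 67.3% in Tnc-/-, a difference of -8.72 points (p = 0.0571 in the same exact test, its lower bound). The share of Itgb1 was 60.69 ± 2.357% and 55.87 ± 1.132%, lower in every Tnc-/- library. Itgb6 held 1.764 ± 0.8004% and 1.333 ± 0.4931%, and Itgb8, another alpha v partner, 0.2912 ± 0.1806% and 0.1466 ± 0.05407%, both overlapping. These shares are parts of a whole, so a higher share of 1 subunit lowers those of the others, and beta1 and beta3 also pair with other alpha chains.

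**Figure D4:**
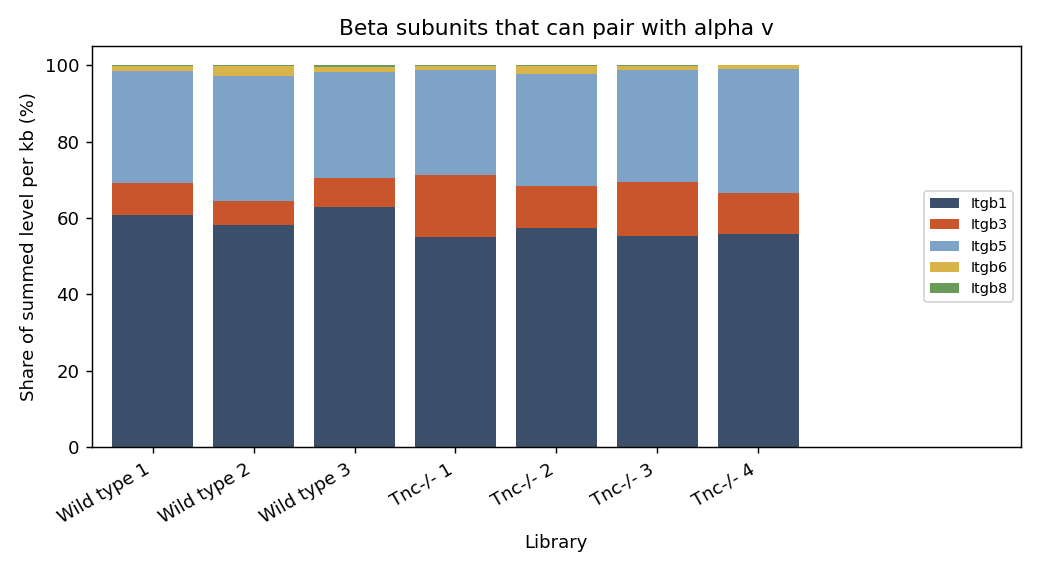
Share (%) of each beta subunit that can pair with alpha v in their summed CPM per kb, 1 stacked bar per library. The Itgb3 segment is 6.221 to 8.302% in wild type and 10.81 to 16.15% in Tnc-/-, and the Itgb5 segment overlaps between the genotypes.

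Among the 6 alpha subunits, treated the same way, Itgav held 18.22, 15.39 and 19.62% of the summed CPM per kb in wild type and 12.89, 10.56, 11.64 and 9.209% in Tnc-/-. Itga8 held 3.498, 6.876 and 7.908% in wild type and 1.845, 1.556, 2.035 and 1.607% in Tnc-/-. Neither overlapped between genotypes, whereas the shares of the other 4 alpha subunits did. Itga5 was the largest in both, with a mean of 40.59% in wild type and 49.46% in Tnc-/-.

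Ratios of counts within a library, which were chosen after their values were seen and are read only between libraries, need no scaling either. The ratio of Itgb3 to Itgav was 1.39, 0.868 and 0.965 in WT 1 to 3 and 3.77, 2.42, 3.11 and 2.85 in Tnc-/- 1 to 4. The Tnc-/- values were all higher, with means of 1.07 and 3.04. The ratio of Itgb5 to Itgav did not overlap either, at 2.95, 2.75 and 2.13 in wild type and 3.88, 3.96, 3.91 and 5.07 in Tnc-/-. The ratio of Itgav to Itgb1 was 0.142, 0.178 and 0.18 in wild type and 0.113, 0.113, 0.118 and 0.0993 in Tnc-/-. That of Itga8 to Itgb1 was 0.0187, 0.0545 and 0.0497 in wild type and 0.0111, 0.0114, 0.0142 and 0.0119 in Tnc-/-. Both were lower in every Tnc-/- library, including against WT 1, while the ratios of Itga2, Itga5, Itga7 and Itga9 to Itgb1 overlapped.

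The other integrin subunits were examined as a list of 17, of which 15 were tested. Of these, 2 were higher (Itga2b, Itgal) and 1 was lower (Itgae), where 29.0% of all genes were called. The median log2 fold change was 0.14, and 0.08 to 0.30 with 1 library left out. Itga2b, the alpha IIb chain of the platelet fibrinogen receptor, was at 93.6, 41.2 and 55.22 CPM in wild type and at 206, 111, 170.1 and 165.8 CPM in Tnc-/-. It did not overlap (log2 fold change 1.37, SE 0.30, adjusted p = 0.0131) and followed the same order of libraries as Itgb3. The ratio of its counts to those of Itgb3 was 0.559 to 0.665 in wild type and 0.765 to 0.923 in Tnc-/-. Itgal, the leukocyte alpha L chain, was at 34.62, 25.65 and 25.7 CPM in wild type and at 69.57, 40.61, 63.54 and 47.23 CPM in Tnc-/- (0.95, SE 0.22, adjusted p = 0.0151). Neutrophil and macrophage markers summed to 2936 to 5797 CPM in wild type and 5484 to 8006 CPM in Tnc-/-, which overlap. Of the 6, 5 had a positive log2 fold change and 1 was called, S100a9 (1.22, adjusted p = 0.0187), which did not overlap, and their part in the Itgal value was not tested.

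Itgae, the alpha E chain of mucosal lymphocytes, was at 2.308, 40.74 and 25.57 CPM in wild type and at 4.29, 3.454, 2.743 and 2.668 CPM in Tnc-/- (-2.79, SE 0.73, adjusted p = 0.0234). Only WT 2 and 3 were high, and without them the log2 fold change was 0.51 (adjusted p = 0.492). In that edgeR fit Itga2b was at 0.80 and Itgal at 0.67, both smaller than with all libraries. With the covariate 0 of the 15 were called (2 at an unadjusted p under 0.05), where 2.24% of all genes were. The number called also turned on single libraries. It was 7 without WT 1 (6 higher, 1 lower), where 64.2% of all genes were called. It was 1 without WT 2 (16.0% of all genes). It was 0 without WT 3 (12.3% of all genes), with 3 of the list at an unadjusted p under 0.05. It was 1 without Tnc-/- library 3 (14.5%) and 2 without any other single library (16.5 to 17.6%). Itgam and Itgb2l had 0 counts in all 7 libraries, and Itgam shares 68.7% of its exon bases with another gene, so its count is uncertain.

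Ligands of the 10 subunits formed a list of 25 matrix and surface proteins, all tested, with a median log2 fold change of 0.09. That median was -0.1 to 0.30 with 1 library left out, -0.20 without WT 2 and 3 and -0.35 with the smell receptor covariate. Of the 25, 4 were higher and 4 lower (Tnc among them). These 8 of 25 stand beside 29.0% of all genes called, 10.3% higher and 18.7% lower. With the smell receptor covariate 0 were called higher and 1 lower, which was Tnc, where 2.24% of all genes were called in either direction. Besides Tnc, the tenascins Tnxb and Tnr were called in opposite directions. Tnxb, the tenascin of loose connective tissue, was at 215.1, 156.2 and 135.2 CPM in wild type and at 381.4, 361.8, 478.8 and 423.4 CPM in Tnc-/-, with no overlap (log2 fold change 1.29, SE 0.20, adjusted p = 0.0067). It was 0.93 without WT 2 and 3 (adjusted p = 0.041) and 0.77 with the covariate, where the call was lost (adjusted p = 0.149). Tnr, a tenascin of the nervous system, was at 5.528, 57.82 and 32.44 CPM in wild type and at 0.68 to 1.783 CPM in Tnc-/- (-4.98, SE 0.75, adjusted p = 0.0067). Its wild-type level was set by libraries 2 and 3, without which the log2 fold change was -2.46 (adjusted p = 0.0244), and the covariate took it to -1.46 (adjusted p = 0.135). Tnr spans 408 kb.

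Among the other ligands, Edil3, an RGD protein that binds alpha v beta3 and beta5, was at 87.16, 108.7 and 123.6 CPM in wild type and at 37.02, 45.57, 45.12 and 59.16 CPM in Tnc-/-. It did not overlap (-1.19, SE 0.18, adjusted p = 0.0067), and was at -0.91 without WT 2 and 3 (adjusted p = 0.0343) but lost the call with the covariate (-0.83, adjusted p = 0.134). The laminin chains differed in direction. Lama5, of vessel and epithelial basement membranes, was at 30.83 to 34.4 CPM in wild type and 53.26 to 69.46 CPM in Tnc-/- (0.88, SE 0.13, adjusted p = 0.0067), and at 0.82 without WT 2 and 3 (adjusted p = 0.0343). With the covariate Lama5 was at 0.76 and no longer called (adjusted p = 0.116). Lama2, the laminin chain of muscle fibres that alpha7beta1 binds, was at 81.58, 126.1 and 114 CPM in wild type and at 54.14 to 68.3 CPM in Tnc-/- (-0.83, SE 0.17, adjusted p = 0.00952). It lost the call without those libraries (-0.45, adjusted p = 0.125). Edil3 spans 501.8 kb and Lama2 639.7 kb.

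Fibronectin, Fn1, was looked up after its values were seen. It was at 4647, 3800 and 4606 CPM in wild type and at 4021, 3695, 4823 and 6190 CPM in Tnc-/-, which overlap (0.11, SE 0.23, 95% interval -0.43 to 0.64, adjusted p = 0.762). Over the whole ligand list, 2 were higher and 3 lower without WT 2 and 3, where 2.53% of all genes were higher and 1.92% lower. The higher calls went from 4 to 2 on leaving out WT 2, WT 3, or Tnc-/- library 1, 3 or 4. In those fits 3.27 to 5.54% of all genes were higher, against 10.3% with all libraries. The lower calls stayed at 4 there, where 9.04 to 11.7% of all genes were lower, against 18.7%. Leaving out WT 1 gave 5 higher and 4 lower (24.3% and 39.9% of all genes). Leaving out Tnc-/- library 2 gave 3 higher and 4 lower (5.73% and 11.8%).

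Adaptors and kinases that join integrins to actin formed a list of 30, of which 29 were tested. There were 10 higher and 2 lower, where of all genes 10.3% were higher and 18.7% lower. The median log2 fold change was 0.37, but 0.14 without WT 2 and 3 and 0.07 with the smell receptor covariate. Pxn (paxillin, a scaffold of focal adhesions) was at 125, 106.9 and 104 CPM in wild type and at 195.2, 183.8, 206.9 and 205.7 CPM in Tnc-/-, with no overlap (0.82, SE 0.13, adjusted p = 0.0067). Tln1 (talin, which binds beta chain tails and activates integrins) was at 424, 211.5 and 267 CPM in wild type and at 829.4, 575.1, 724.8 and 716.2 CPM in Tnc-/- (1.24, SE 0.26, adjusted p = 0.0105). Both were higher in all 4 Tnc-/- libraries than in any wild-type library. The tensins Tns1 (0.95, SE 0.16, adjusted p = 0.0073) and Tns2 (0.84, SE 0.16, adjusted p = 0.00908) rose with them, as did Zyx (zyxin, 1.01, SE 0.19, adjusted p = 0.00875) and Parvb (beta-parvin, 0.83, SE 0.17, adjusted p = 0.0103).

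The lower calls among the adaptors were Ptk2 and Ilk, named after their values were seen. Ptk2 (focal adhesion kinase) was at -0.94 (adjusted p = 0.026) with overlapping groups, at -0.19 without WT 2 and 3 (adjusted p = 0.604) and at 0.12 with the covariate (adjusted p = 0.862), and spans 218.2 kb. Ilk (integrin-linked kinase) was at -2.55 (adjusted p = 0.0297) but at no more than 8.57 CPM in any library, and shares 89.7% of its exon bases with other genes, so its counts are uncertain. Its log2 fold change was -1.24 without WT 2 and 3 (adjusted p = 0.302) and -0.54 with the covariate (adjusted p = 0.807). With the covariate 0 of the 29 were called (2 at an unadjusted p under 0.05), where 2.24% of all genes were. Without WT 2 and 3, Pxn was at 0.66 (adjusted p = 0.0554), Tns1 at 0.73 (adjusted p = 0.0712) and Tln1 at 0.74 (adjusted p = 0.097). The higher calls numbered 19 without WT 1, where 24.3% of all genes were called higher, and 5 without WT 3, where 3.27% were. They numbered 7 to 10 without any other single library, where 3.91 to 5.73% were. The lower calls numbered 3 without WT 1, where 39.9% of all genes were lower, and 1 without Tnc-/- library 2 (11.8%). They numbered 0 without any other single library (9.04 to 11.7%). The summed skeletal muscle and platelet markers, given above, did not overlap between genotypes (1 of 8 and 3 of 5 tested markers called higher, against 10.3% of all genes). The summed neutrophil and macrophage markers did overlap, and 1 of 6 was called higher, S100a9, the only one of them without overlap. The part of all these markers in the adaptor values was not tested.

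**Figure D5:**
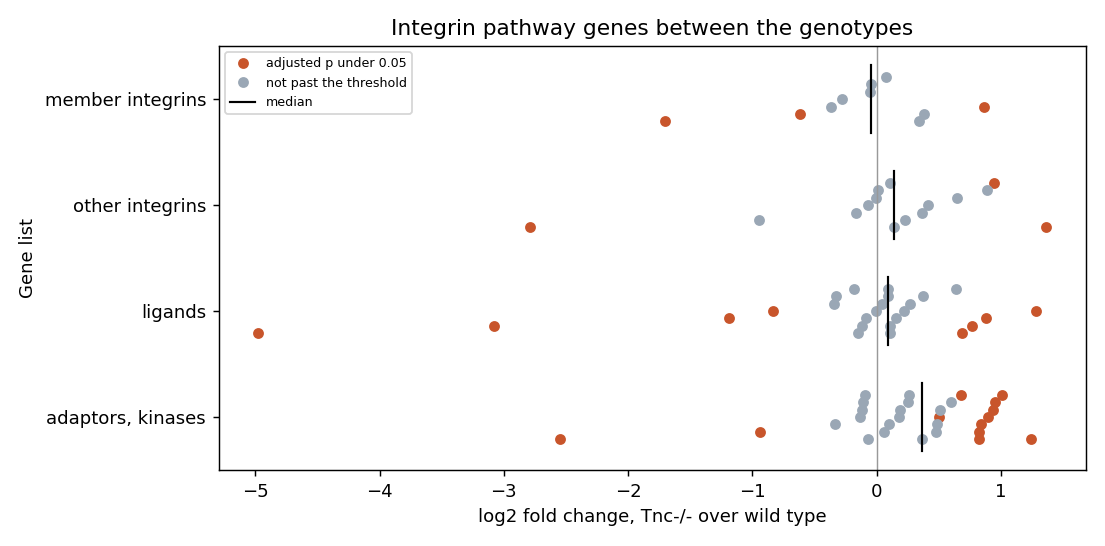
The log2 fold change (Tnc-/- over wild type) of each tested gene in the 10 member integrins, the other integrins, the ligands and the adaptors and kinases. Orange points have an adjusted p under 0.05, grey points do not, and bars mark each list's median (-0.05, 0.14, 0.09 and 0.37).

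Finally, each subunit was set against 24 other integrin subunits by how alike their profiles were over the 7 libraries, as the root mean square difference of log2 CPM after centring each gene on its own mean. The closest profiles were those of Itgb5 and Itga10 (0.111), Itga5 and Itgb4 (0.116) and Itgb1 and Itgb5 (0.125), none of which passed the test between genotypes. Itgb3 was most like Itgal (0.18) and Itga7 most like Itga5 (0.194). Itgav was most like Itga1 (0.274), the alpha chain of a collagen receptor, and Itga8 was most like Itgav, at a difference of 0.599 the least matched of the 10. For the remaining genes the nearest subunits were Itgad for Itga2 (0.295), Itga3 for Itga9 (0.343) and Itga1 for Itgb6 (0.338). These profiles share their libraries and scaling, and are a description of 7 samples.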

How the data were processed

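The authors deposited raw read counts per gene, 1 file per mouse, grouped here by the genotype in the labels. Per the submitters' processing notes, FastQC 0.11.9, HISAT2 2.2.1, HTSeq 2.0.2 and DESeq2 1.38.3 were used with GRCm39 (mm39); the annotation release and strand setting are not given in the sources used here. Per the labels' protocols, poly(A) RNA was made into libraries with a NEBNext Ultra kit. The wild-type files list 56980 identifiers and no other rows. The Tnc-/- files list 56941 with symbols, plus rows that name no gene and hold 30.1 to 32.7% of listed reads, which were left out. The 56854 identifiers in common were used, and 0 columns were unmapped.

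Genotypes were compared with edgeR 4.0.16 in R 4.3.3 (TMM, filterByExpr, robust quasi-likelihood F test, Benjamini-Hochberg over 17791 genes, threshold 0.05), after the code was tested on simulated data. Normalised levels are CPM of TMM-scaled library sizes. Exon lengths, spans and overlaps came from GENCODE M21 (GRCm38), so the only coordinates given are RefSeq promoter windows. Single values were compared with exact permutation tests. P-values measure the spread between mice. Alternatives used DESeq2 1.42.0 and limma 3.58.1 (voom), other scalings and filters, the replicate number as a block, the smell receptor level as a covariate, and sets of libraries left out. The subunits, gene lists and tests were chosen with earlier results of these data known. Named genes are the 10 subunits, Tnc, up to 6 called genes per list in order of p, and each subunit's nearest profile, besides marker genes; others are said to be chosen after their values were seen.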

Additional observations from a re-analysis of the deposited data

Results flagged for a closer look

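A library far from the others was looked for in 21 values, among the 4 Tnc-/- libraries only, and 2 stood out. By chance about 1 in 20 groups does. The wild-type libraries were not tested in this way. Itgb1 was at 634 CPM in Tnc-/- library 4 and at 534 to 545 CPM in the others, a gap of 0.896 of the group's range and past Dixon's critical value for 4 samples. Itgb6 was at 33.5 CPM in Tnc-/- library 2 and at 18.2 to 20.5 CPM in the others, a gap of 0.852 of the range.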

How the results depend on the processing

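Of 17791 genes, 5159 were called (1830 higher, 3329 lower). The count was 1653 with DESeq2 and Bonferroni adjustment, 10084 with weighted voom, 973 with voom without weights (added after seeing the data; 707 higher, 266 lower), 399 with the smell receptor covariate and 825 without WT 2 and 3. Library totals gave 951 higher and 4541 lower; over all genes the median log2 fold change then was -0.243, against -9e-04. Leaving out 1 library gave 2229 (without WT 3) to 14113 (without WT 1). Deviations from the group means correlated at -0.00531, 0.102 and -0.00549 between libraries of the same replicate number. Between different numbers the correlations were -0.103 to 0.092. All are small, and with so few libraries they cannot decide whether the numbers pair the samples. With the replicate number as a block 1713 genes and 3 of the 10 subunits were called.

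The number of subunits called was 3, and 6 with weighted voom, 0 with the covariate (2 at an unadjusted p under 0.05), 1 without WT 2 and 3 (Itgav), and 2 to 6 with 1 library left out. Without WT 1, Itga2 (-0.54), Itga5 (0.58) and Itga7 (0.61) were also called, in a fit that called 64.2% of 21989 genes. Itga8 and Itgav kept their calls whichever single library was left out (log2 fold changes -1.88 to -1.49 and -0.71 to -0.48).

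Signs turned for subunits that had not passed the test. With the covariate, Itga2 was at 0.67, Itga7 at -0.11, Itga9 at 1.12, Itgb5 at -0.36 and Itgb6 at 0.065. Without WT 2 and 3, Itga2 was at 0.36, Itga9 at 0.74 and Itgb5 at -0.20. With library totals Itgb5 was at -0.16. With weighted voom Itga9 was at 0.024 and Itgb1 at 0.0015, with unweighted voom Itga9 was at 0.073, and with no filter Itga9 was at 0.046 and Itgb1 at 0.028. With the replicate block Itga9 was at 0.042 and Itgb5 at -0.0198. With 1 library left out, ranges were -0.23 to 0.37 for Itga9, -0.19 to 0.22 for Itgb1 and -0.034 to 0.33 for Itgb5. The Itgb3 share difference ranged from 4.58 to 6.36 points with 1 library left out, and was 7.67 with CPM not divided by length and 10.5 without Itgb1 in the sum. That of Itgb5 ranged from -1.38 to 1.17 with 1 library left out, was -0.685 and -8.72 under those other choices, and was 0.314 without WT 2 and 3. The cause of these shifts was not tested. Limits of depth and of the number of mice were not compared.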
